A study of Homo sapiens with 6 samples.

Results

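The genes described here are 39 autophagy and lysosome genes, chosen by name from the 37923 genes of the deposited count table. They comprise 3 transcription factors of the MiT/TFE family, 10 autophagy genes, 3 lysosomal membrane proteins, 19 lysosomal hydrolases and activators, and 4 subunits of the vacuolar proton pump (V-ATPase). All 39 symbols were found once in the table, and 38 passed the filter on low counts. CTSS, a cathepsin typical of antigen-presenting cells, was the exception: its highest library had 0.329 CPM (counts scaled to equal library size), and it was not tested.

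The samples are cultures labelled RKO, a line from a human colorectal carcinoma: 3 libraries of a Control group and 3 of an ENZ group. According to the series design, ENZ cells received A3, a degrader of the histone demethylase LSD1, and RNA was taken after 48 h. Neither the handling of the Control cells (vehicle or none) nor the meaning of ENZ is stated. The replicates are called biological but their origin is not described, so p-values measure only the spread between these libraries, which may be technical.

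Autophagy encloses cytoplasm in a double membrane and delivers it to the lysosome. ULK1 starts the process, the lipid kinase complex with BECN1 and UVRAG nucleates the membrane, and proteins of the ATG8 family (MAP1LC3B and the GABARAP proteins) are attached to it and bind cargo receptors such as SQSTM1. The lysosome is acidified by the V-ATPase and filled with hydrolases that break down proteins, glycans and lipids. TFEB, TFE3 and MITF are related factors that bind E-box motifs in the promoters of many of these genes and are held in the cytoplasm by mTORC1 when nutrients are plentiful, so their activity is set largely by location and phosphorylation, which RNA levels do not measure.

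The libraries held 26691289 to 30025543 counts. KDM1A, the gene of LSD1, had 111 ± 1.87 CPM for the Control group (SD, n = 3) and 109.5 ± 3.98 for ENZ. LSD1 protein was not measured, and the transcript does not check the exposure. Markers went partly against the label. Of 9 listed markers of colorectal epithelium 5 were under 1 CPM, among them CDX1, which was at 0 in the mean of Control, and KRT20. The other 4 were over 10 CPM, with Control means of 39.4 for VIL1, 69.9 for EPCAM, 714 for KRT8 and 232 for KRT18. All 10 prostate luminal markers were over 1 CPM and 8 were over 10 CPM. The cells are therefore called the labelled cells below. The prostate markers summed to 2802 to 2849 CPM in the Control libraries and 3190 to 3266 CPM in the ENZ libraries, and the part of this shift in the results was not tested. Macrophage and leukocyte markers, which would bring lysosomal RNA, were near 0 in every library, with 6 of 6 under 1 CPM and a sum of 0.670 to 0.910 CPM.

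Of the 38 tested genes 20 rose in ENZ and 3 fell at an adjusted p under 0.05 in edgeR's quasi-likelihood test, against 20.5% of all 18581 tested genes called higher and 19.3% called lower (39.8% in either direction). As shares of the 38, these are 52.6% higher and 7.89% lower. Among the 10246 tested genes with a mean of at least 10 CPM, the range in which all 38 lie, 30.0% were called higher and 21.7% lower. The median log2 fold change (ENZ over Control) of the 38 genes was 0.16, and that of all tested genes was −0.01. The log2 fold change was over 0 for 32 of the 38, against 49.1% of all tested genes. The changes were small: no gene of the 38 reached an absolute log2 fold change of 1, the limit that the series design states, which 2.98% of all tested genes reached with a call. CPM values were scaled by TMM factors, and the groups did not overlap for 24 genes that were higher in ENZ and 3 that were lower, against 25.3% and 24.0% of all tested genes. Autophagy genes had 6 rises among 10, hydrolases 10 rises and 2 falls among 18, V-ATPase subunits 2 rises among 4, membrane proteins 1 rise among 3, and MiT/TFE factors 1 rise and 1 fall among 3.

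**Figure D1:**
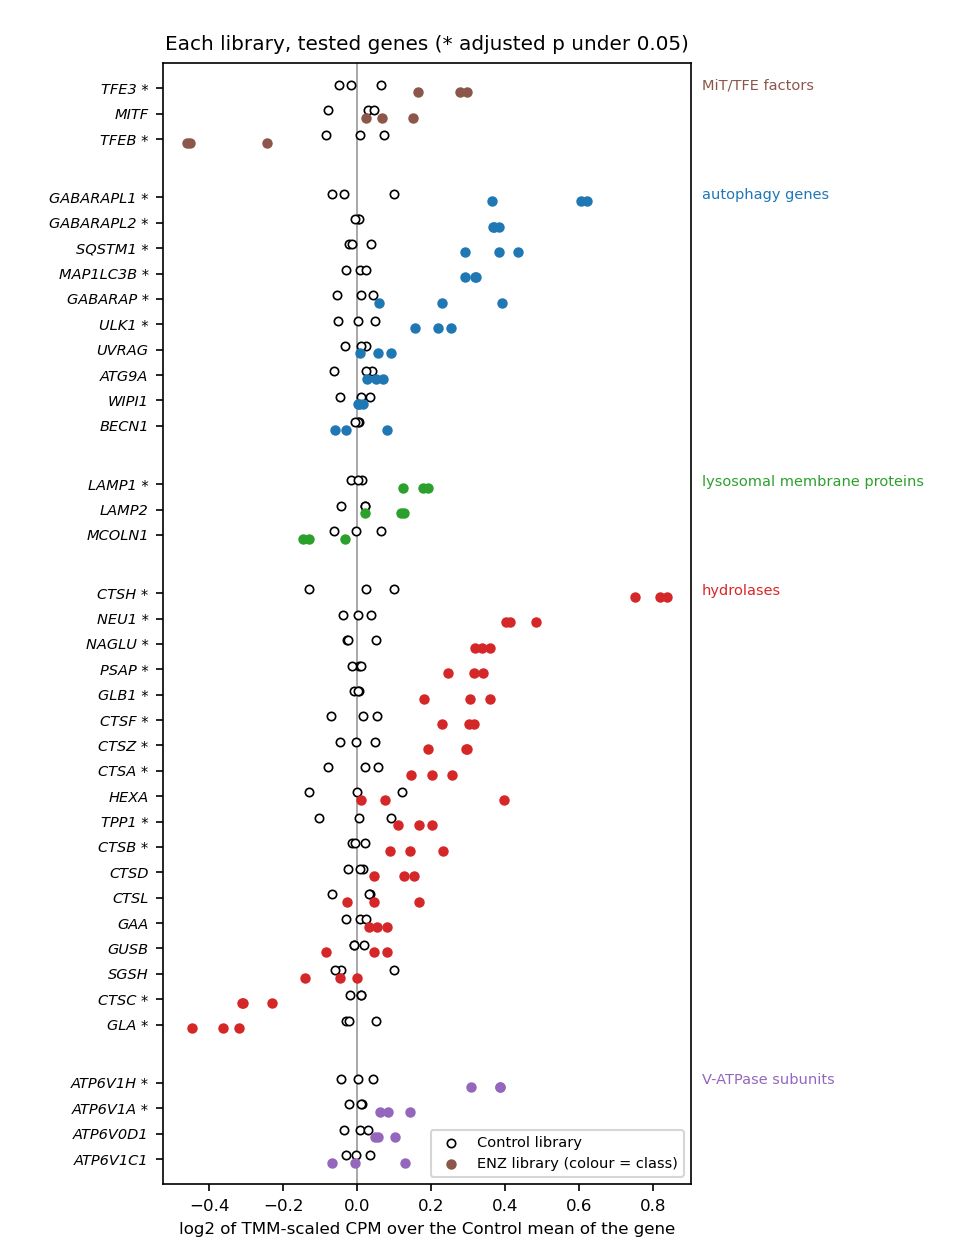
Log2 of the TMM-scaled CPM of each library over the Control mean of the same gene (x axis) for the 38 tested genes (y axis), with open circles for the 3 Control libraries, filled circles for the 3 ENZ libraries, colours for the classes and asterisks for an adjusted p under 0.05. The ENZ libraries of CTSH lie farthest to the right, and the ENZ means of TFEB and GLA lie farthest to the left. All 5 genes from GABARAPL1 to GABARAP in the autophagy class have their ENZ libraries to the right of the Control libraries.

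The MiT/TFE factors went in different directions. TFEB (chr6:41683978-41736259 in GRCh38, minus strand) had 16.6, 18.5 and 17.6 CPM in the Control libraries and 12.8, 14.8 and 12.8 CPM in the ENZ libraries. Every ENZ library was below every Control library, a log2 fold change of −0.38 ± 0.08 (SE; adjusted p = 6.47e-04). TFE3, its closest functional partner in lysosomal gene control, had 35.2, 38.1 and 36.0 CPM in Control and 40.8, 44.1 and 44.7 CPM in ENZ. It rose by 0.25 ± 0.06 on the log2 scale (adjusted p = 0.00141), again without overlap of the groups. MITF, the family's melanocyte and osteoclast factor, had 19.0, 19.2 and 17.6 CPM in Control and 20.7, 18.9 and 19.5 CPM in ENZ. These values overlapped, and the log2 fold change was 0.08, with an adjusted p of 0.385 and a 95% confidence interval from −0.07 to 0.23. In FPKM, which is scaled to a length per gene, TFE3 was the most abundant of the 3, at 8.75 ± 0.321 in Control and 10.1 ± 0.434 in ENZ. TFEB went from 2.64 ± 0.133 to 1.98 ± 0.170, and MITF had 2.54 ± 0.116 and 2.62 ± 0.133. The lengths used were 6722 bases for TFEB, 4207 for TFE3 and 7419 for MITF, where the longest transcripts have 3605, 3291 and 4799. Levels and shares compared between these genes depend on those lengths. The order of TFEB and MITF by FPKM in Control is not separated by their spread. TFEB made up 18.4% to 19.3% of the summed FPKM of the 3 factors in the Control libraries and 12.6% to 14.5% in the ENZ libraries, and TFE3 made up 62.5% to 63.1% and 67.4% to 70.1%. The sum itself was 13.9 ± 0.485 in Control and 14.7 ± 0.388 in ENZ. Offsets per library for the GC content and length of transcripts were tried as another scaling. Under them TFE3 rose by 0.14, TFEB fell by 0.51, and MITF passed the threshold with a log2 fold change of 0.20 (adjusted p = 0.0128).

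Of the 5 listed genes that start autophagy or shape its membrane, 1 rose and 4 did not pass the test. This share of rises, 20%, was near the 20.5% of all tested genes called higher (30.0% of those at 10 CPM or more). ULK1, the kinase at the head of the pathway, had 54.3, 58.3 and 56.5 CPM in Control and 62.8, 65.6 and 67.2 CPM in ENZ, with no overlap. Its log2 fold change was 0.21 ± 0.05 (adjusted p = 0.00163), but with GC and length offsets it was 0.04 (adjusted p = 0.492), so that call depended on the scaling. The scaffold BECN1 had 62.3 to 62.6 CPM in Control and 59.9 to 66.0 CPM in ENZ, a difference within the spread of the ENZ libraries. ATG9A, the lipid scramblase of autophagic vesicles, UVRAG, a partner of BECN1, and WIPI1, which reads the lipid mark on the growing membrane, had log2 fold changes of 0.05, 0.05 and 0.01 with adjusted p-values of 0.429, 0.579 and 0.939. For these 4 genes the confidence intervals ran at most from −0.11 (WIPI1) to 0.19 (UVRAG) with TMM scaling. On the opposite strand, ARSG (10.5 CPM on average) overlaps 24.4% of the exon bases of WIPI1, and PSME3 (291 CPM) 4.68% of those of BECN1. ATG9A shares 38.8% of its exon bases with ENSG00000284820 on the same strand (0.164 CPM). The library kit does not mark strand, and how reads in such bases were counted is not stated. None of the 10 autophagy genes was called lower by edgeR, by DESeq2 (14.8% of all genes it tested) or by limma-voom (19.3%), and 0 were lower in edgeR at an unadjusted p under 0.05.

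The ATG8 genes and the receptor SQSTM1 all rose, 5 of 5, in a class chosen with earlier results known. Of all tested genes at 10 CPM or more, 30.0% were called higher. MAP1LC3B (chr16:87383953-87404779, plus strand), which encodes LC3B, the usual marker protein of autophagosomes, had 185, 187 and 180.2 CPM in Control and 225, 229 and 230.0 CPM in ENZ. GABARAPL2, also known as GATE-16, had 94.5, 94.6 and 93.8 CPM in Control and 122, 123 and 122 CPM in ENZ. The spread within each group was under 1 CPM for GABARAPL2 (SD 0.435 and 0.757), far below the difference. Their log2 fold changes were 0.31 ± 0.04 for MAP1LC3B (adjusted p = 5.64e-07) and 0.37 ± 0.04 for GABARAPL2 (adjusted p = 1.69e-07). GABARAPL1 had the largest log2 fold change of the 4 listed ATG8 genes, with 16.3, 16.6 and 18.3 CPM in Control against 21.9, 25.9 and 26.2 CPM in ENZ. It rose 1.45-fold (log2 fold change 0.53 ± 0.08; adjusted p = 1.1e-05).

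GABARAP itself was at the edge of the threshold. Its Control libraries had 11.0, 11.3 and 10.5 CPM and its ENZ libraries 14.3, 12.8 and 11.4 CPM, with the lowest ENZ library next to the highest Control library. The log2 fold change was 0.23 ± 0.09 (adjusted p = 0.0447), and the call ended in 11 of 17 alternative settings, among them DESeq2 (adjusted p = 0.109) and the omission of ENZ replicate 1 (log2 fold change 0.15; adjusted p = 0.222). In GENCODE 44, 35.4% of the exon bases of GABARAP are shared with another gene, ENSG00000262526, and how reads in such bases were counted is not stated. MAP1LC3B has a near-identical copy, MAP1LC3B2, at 2.58 ± 0.461 CPM in Control and 3.79 ± 0.601 CPM in ENZ, so the split of reads between both is uncertain. The copy rose by 0.55 on the log2 scale (adjusted p = 0.0102). MAP1LC3A, an ATG8 gene outside the list that was looked up after the results were known, had 17.9 FPKM in Control and 21.4 FPKM in ENZ and rose by 0.29 (adjusted p = 0.00271). Within the summed FPKM of the 4 listed ATG8 genes, MAP1LC3B held 46.6% to 47.3% in Control and 45.7% to 46.4% in ENZ, and GABARAPL2 held 40.1% to 40.6% and 41.1% to 41.3%. The sum over these 4 genes thus came mostly from 2 of them in all libraries.

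SQSTM1, which encodes p62, the receptor that links ubiquitin-tagged cargo to LC3 and is itself degraded by autophagy, had 116, 121 and 117 CPM in Control. Its ENZ libraries had 144, 159.6 and 154 CPM, all above the Control libraries. SQSTM1 rose 1.29-fold (log2 fold change 0.37 ± 0.04; adjusted p = 5.11e-07). Of its exon bases 21.0% overlap MRNIP on the opposite strand, a gene at 22.6 CPM on average, and the library kit does not mark strand. The summed FPKM of the 4 ATG8 genes and SQSTM1 was 93.4 to 95.1 in the Control libraries and 116 to 119 in the ENZ libraries, whereas that of the 5 initiation and nucleation genes was 43.7 to 45.0 and 44.5 to 45.7.

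Among the membrane proteins, LAMP1, the heavily glycosylated lining protein of lysosomes, had 224, 228 and 227 CPM in Control and 246, 256 and 258 CPM in ENZ. LAMP1 rose by 0.16 ± 0.04 on the log2 scale (adjusted p = 8.33e-04). LAMP2, the lining protein that also serves chaperone-mediated autophagy, had 146 to 153 CPM in Control and 153 to 164 CPM in ENZ, a log2 fold change of 0.09 (adjusted p = 0.0844). LAMP2 has the lowest GC content of the 38 tested genes, at 36.0%, and with the offsets LAMP2 rose by 0.31 (adjusted p = 2.45e-07). MCOLN1, the calcium channel of the lysosomal membrane, had 37.1, 40.5 and 38.7 CPM in Control and 35.1, 37.9 and 35.5 CPM in ENZ, with overlapping groups (log2 fold change −0.10; adjusted p = 0.161). Under the same offsets MCOLN1 had a log2 fold change of −0.21 and passed the threshold (adjusted p = 8.92e-04).

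Of the cathepsins and TPP1, lysosomal proteases or protective proteins of the lysosome, 6 rose and 1 fell among 9 tested. As shares these are 66.7% and 11.1%, against 30.0% and 21.7% of all tested genes at 10 CPM or more. CTSH (chr15:78921058-78949574, minus strand), an aminopeptidase, had the largest log2 fold change of the 38 genes. It had 16.6, 17.5 and 14.9 CPM in Control and 29.2, 27.5 and 28.8 CPM in ENZ. No ENZ library came near a Control library, and CTSH rose 1.74-fold (log2 fold change 0.80 ± 0.07; adjusted p = 8.37e-09). On log2(FPKM + 1) the difference was 0.47, since the added 1 is close to the level of CTSH. CTSF, a cysteine protease, had 36.4, 38.6 and 39.6 CPM in Control and 44.7, 47.5 and 47.1 CPM in ENZ, a rise of 0.28 ± 0.05 (adjusted p = 2.58e-04). CTSZ, a carboxypeptidase, had 76.1, 78.9 and 73.8 CPM in Control and 87.0, 93.5 and 93.7 CPM in ENZ, a rise of 0.26 ± 0.05 (adjusted p = 1.12e-04). The groups did not overlap for either gene. Of the exon bases of CTSZ 31.7% overlap NELFCD on the opposite strand, a gene at 0.042 CPM on average. The library kit does not mark strand, and how reads in such bases were counted is not stated. CTSA, a carboxypeptidase that also shields NEU1 and GLB1 from degradation, had 90.2, 88.0 and 82.1 CPM in Control and 95.9, 99.9 and 104 CPM in ENZ (log2 fold change 0.20 ± 0.05; adjusted p = 0.00153). CTSA rose by 0.13 with GC and length offsets.

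The smaller rises in this group were less firm. CTSB, an abundant cysteine protease, had 113, 116 and 114 CPM in Control and 126, 122 and 134 CPM in ENZ (log2 fold change 0.16 ± 0.04; adjusted p = 0.00614). TPP1, a tripeptidase, had 76.2, 80.9 and 70.7 CPM in Control and 82.0, 85.3 and 87.4 CPM in ENZ (log2 fold change 0.16 ± 0.05; adjusted p = 0.0141). Its lowest ENZ library was next to its highest Control library, and without Control replicate 3 the call ended (log2 fold change 0.11; adjusted p = 0.114). CTSD, the main aspartic protease of the lysosome, had 65.7 to 67.5 CPM in Control and 69.0 to 74.3 CPM in ENZ. Its groups did not overlap, but the adjusted p was 0.0665 at a log2 fold change of 0.11, which became −0.06 with GC and length offsets. CTSL, a cysteine endopeptidase, had 65.2 to 70.1 CPM in Control and 67.1 to 76.7 CPM in ENZ (log2 fold change 0.06; adjusted p = 0.363).

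CTSC, which activates serine proteases of immune cells, went the other way. It had 43.2, 44.1 and 44.1 CPM in Control and 35.3, 35.3 and 37.3 CPM in ENZ. CTSC fell by 0.28 ± 0.05 on the log2 scale (adjusted p = 1.9e-04). Its longest transcript has 39.2% GC, and with GC and length offsets the log2 fold change was −0.12 without a call (adjusted p = 0.0671).

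Enzymes that break down glycans and lipids, with the activator PSAP, had 4 rises and 1 fall among 9. As shares these are 44.4% and 11.1%, against 30.0% and 21.7% of all tested genes at 10 CPM or more. NEU1 (chr6:31857659-31862905, minus strand), the lysosomal sialidase, had 76.8, 79.0 and 80.9 CPM in Control and 104, 105 and 110.2 CPM in ENZ. NEU1 rose 1.35-fold (log2 fold change 0.43 ± 0.04; adjusted p = 7.15e-08) and the groups lay far apart beside their spread. NAGLU, which degrades heparan sulphate, had 35.8, 37.8 and 35.9 CPM in Control and 46.8, 46.1 and 45.5 CPM in ENZ, a rise of 0.34 ± 0.05 (adjusted p = 2.42e-05). NAGLU rose by 0.20 with the offsets. GLB1, the lysosomal beta-galactosidase, had 46.5, 46.1 and 46.4 CPM in Control and 52.5, 57.3 and 59.4 CPM in ENZ, a rise of 0.28 ± 0.05 (adjusted p = 2.09e-04). The Control libraries of GLB1 lay within an SD of 0.240 CPM, and the ENZ libraries spread over an SD of 3.55 CPM.

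PSAP (chr10:71816298-71851251, minus strand), the precursor of the saposins that present sphingolipids to their hydrolases, was the most abundant of the 39 genes. It had 522, 524 and 515 CPM in Control and 617, 647 and 659 CPM in ENZ. PSAP rose 1.23-fold (log2 fold change 0.30 ± 0.03; adjusted p = 3.86e-07). In FPKM it went from 169 ± 1.51 to 203 ± 5.43, while the 19 hydrolases and activators together went from 343 ± 3.13 to 392 ± 9.09, so PSAP held a large part of that sum in both groups.

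GLA (chrX:101393273-101408012, minus strand), the alpha-galactosidase that is deficient in Fabry disease, fell. It had 35.2, 35.4 and 37.3 CPM in Control and 26.4, 28.8 and 28.0 CPM in ENZ, with no overlap. The log2 fold change of GLA was −0.38 ± 0.06 (adjusted p = 2.69e-05). GAA, the lysosomal alpha-glucosidase, GUSB, a beta-glucuronidase, HEXA, a subunit of beta-hexosaminidase, and SGSH, a sulphatase of heparan sulphate, did not pass the test. Their log2 fold changes were 0.05 for GAA (interval −0.02 to 0.13), 0.02 for GUSB (−0.09 to 0.12), 0.17 for HEXA (−0.04 to 0.37) and −0.06 for SGSH (−0.19 to 0.06). GAA was abundant, at 156 to 162 CPM in Control and 163 to 169 CPM in ENZ. HEXA was low, at 11.4 to 13.6 CPM in Control and 12.6 to 16.4 CPM in ENZ. Of its exon bases 13.2% overlap a gene on the opposite strand, at 0.059 CPM on average. A further gene, ENSG00000260729 on the same strand, shares 3.88% of them, and how reads in such bases were counted is not stated. With the offsets SGSH had a log2 fold change of −0.19 and GAA one of −0.11, and both were then called lower (adjusted p = 0.00527 and 0.00499), so GAA changed sign.

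Of the 4 V-ATPase subunits, ATP6V1H differed clearly. This regulatory subunit of the cytosolic V1 sector had 82.7, 85.4 and 87.8 CPM in Control and 106, 111 and 111 CPM in ENZ, and rose 1.28-fold (log2 fold change 0.36 ± 0.04; adjusted p = 9.87e-07). ATP6V1A, the catalytic subunit that hydrolyses ATP, had 186, 186 and 182 CPM in Control and 196, 193 and 204 CPM in ENZ. Its groups did not overlap, yet the log2 fold change was only 0.10 ± 0.04 (adjusted p = 0.0436), and the call ended in 10 of 17 settings, including library totals alone (adjusted p = 0.172) and the omission of any one of Control replicates 1, 2 and 3 or ENZ replicates 2 and 3. Its log2 fold change was 0.24 with GC and length offsets. ATP6V1C1, which holds the V1 and V0 sectors together, had 104 to 109 CPM in Control and 101 to 116 CPM in ENZ, a log2 fold change of 0.02 (adjusted p = 0.764) that was 0.17 with a call under the offsets (adjusted p = 1.39e-04). ATP6V0D1, a subunit of the membrane sector, had 122 to 127 CPM in Control and 129 to 134 CPM in ENZ (log2 fold change 0.07; adjusted p = 0.177). None of the 4 subunits was called lower by edgeR (19.3% of all genes it tested), DESeq2 (14.8%) or limma-voom (19.3%). In edgeR 0 of them were lower at an unadjusted p under 0.05.

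Levels per length spanned a wide range. In Control, 21 of the 39 genes were over 10 FPKM, 16 lay between 1 and 10 FPKM, and HEXA and CTSS were under 1 FPKM. After PSAP the order was LAMP1 (39.8 ± 0.276 FPKM), MAP1LC3B (37.0 ± 0.662) and ATP6V1A (36.5 ± 0.510), of which the last 2 overlap within their spread, and then GABARAPL2 (31.7 ± 0.155) and GAA (30.8 ± 0.560). In ENZ MAP1LC3B, at 44.7 ± 0.232 FPKM, lay above LAMP1, at 43.6 ± 0.792. The lowest tested genes were HEXA (0.794 ± 0.0660), CTSH (1.20 ± 0.0941) and CTSC (1.78 ± 0.0158). The median of the tested genes of the list was 10.9 FPKM in Control, against 3.29 FPKM for all tested genes. The lengths behind the deposited FPKM equalled the merged exons of GENCODE 44 within 0.01% for 35 of the 39 genes, and such lengths can far exceed a transcript: that of CTSC was 24849 bases against 7564 for its longest annotated transcript.

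**Figure D2:**
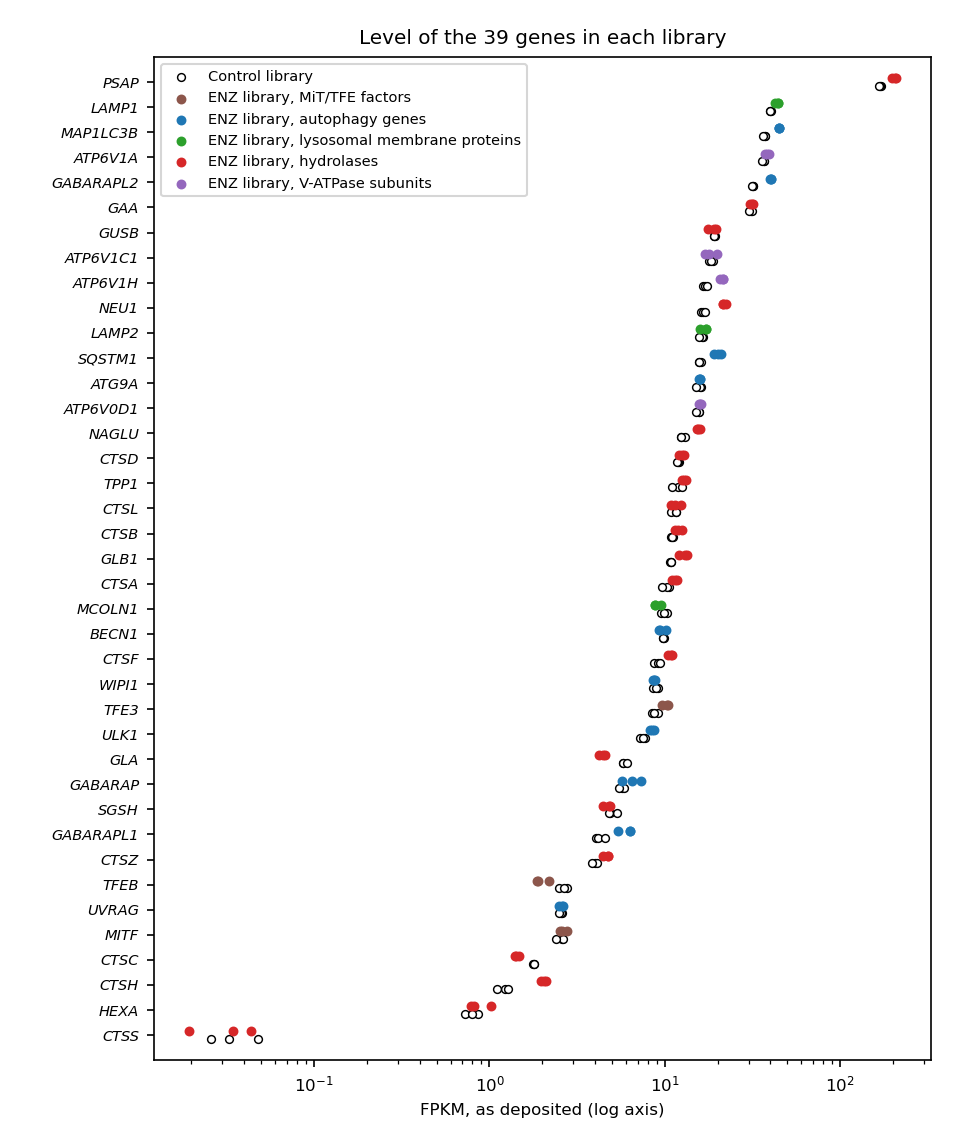
Deposited FPKM (x axis, log scale) of the 39 genes (y axis, ordered by their Control mean), with open circles for the 3 Control libraries and filled circles for the 3 ENZ libraries, coloured by class. PSAP lies at the top at 169 FPKM in Control, CTSS at the bottom at 0.0355 FPKM, and the difference between groups is small beside the range of levels.

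Promoter windows were searched for the E-box that MiT/TFE factors bind, as these genes include known targets of the factors. The windows are RefSeq's for GRCh38.p14, from 250 bases before to 50 bases after a start site, and 28 of the 39 genes matched. PSAP, NAGLU, ATP6V1H, CTSB and ATP6V1A, which rose, are among the genes without a window. The motifs were CACGTG, TCACGTGA, and TCACGTGA with a G before it and a C after it, which is the full palindrome of the lysosomal gene motif known as CLEAR. They are nested, and each reads the same on both strands. CACGTG was found in 8 of the 28 genes, against 7.26% of all 35116 windows and 12.4% of the 12135 tested genes with a window. TCACGTGA was found in 5 (ATP6V0D1, CTSA, GAA, LAMP1 and MCOLN1), against 0.980% of windows and 2.08% of tested genes, and the CLEAR palindrome in GAA and MCOLN1, against 0.353% and 0.824%. A stretch of 30 bases around 1 copy in each of the 8 genes is shown 5′ to 3′ on the strand of the gene, with the hexamer in capitals, so that the flanks can be compared.
NEU1: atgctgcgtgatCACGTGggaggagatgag
CTSF: acatataacaagCACGTGatagaggtcagt
CTSA: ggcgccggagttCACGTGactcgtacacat
LAMP1: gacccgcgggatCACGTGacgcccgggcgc
CTSD: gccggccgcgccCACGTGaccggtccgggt
ATP6V0D1: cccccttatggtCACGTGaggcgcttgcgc
GAA: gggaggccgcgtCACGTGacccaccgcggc
MCOLN1: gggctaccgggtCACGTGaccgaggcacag

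In the order printed these lie at chr6:31862930-31862959 (minus strand), chr11:66568712-66568741 (minus), chr20:45891298-45891327 (plus), chr13:113297199-113297228 (plus), chr11:1763957-1763986 (minus), chr16:67481199-67481228 (minus), chr17:80101493-80101522 (plus) and chr19:7522598-7522627 (plus). NEU1, CTSF, CTSA and LAMP1 rose, and CTSD, ATP6V0D1, GAA and MCOLN1 were not called. Both genes with the 10-base palindrome, GAA and MCOLN1, were thus not called with TMM scaling, and both were called lower with GC and length offsets. LAMP1 had the most copies, 6 in its window, and the 250 bases before its start (chr13:113296989-113297238, plus strand) hold 5 of them, shown in capitals.
LAMP1 upstream: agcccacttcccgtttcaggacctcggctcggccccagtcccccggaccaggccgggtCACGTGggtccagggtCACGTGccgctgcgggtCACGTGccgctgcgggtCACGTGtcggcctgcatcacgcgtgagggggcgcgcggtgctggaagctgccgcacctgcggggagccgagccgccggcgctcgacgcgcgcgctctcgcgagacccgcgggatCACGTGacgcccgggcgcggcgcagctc
GAA upstream (chr17:80101331-80101580, plus strand): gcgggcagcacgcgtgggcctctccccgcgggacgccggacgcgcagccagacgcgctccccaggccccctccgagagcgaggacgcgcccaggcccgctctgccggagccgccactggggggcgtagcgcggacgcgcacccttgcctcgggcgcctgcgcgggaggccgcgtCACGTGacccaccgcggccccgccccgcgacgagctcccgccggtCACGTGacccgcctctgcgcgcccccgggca

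With TMM scaling, holding the hexamer did not go with a larger difference among the 28 genes that have a window. The median log2 fold change was 0.14 in the 8 genes with CACGTG, of which 4 rose and 0 fell, and 0.19 in the 20 genes without it, of which 11 rose and 3 fell. TFEB, TFE3 and MITF had no CACGTG in their windows, nor did MAP1LC3B, GABARAPL1, GABARAPL2, SQSTM1 or CTSH. Over all tested genes with a window, 26.2% of the 1501 with CACGTG and 24.2% of the 10634 without it were called higher. For TCACGTGA these shares were 32.9% of 252 genes and 24.2% of 11883, with medians of 0.05 and 0.01, and for the CLEAR palindrome 38.0% of 100 genes and 24.3% of 12035. Whether any site is bound in the labelled cells was not measured.

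**Figure D3:**
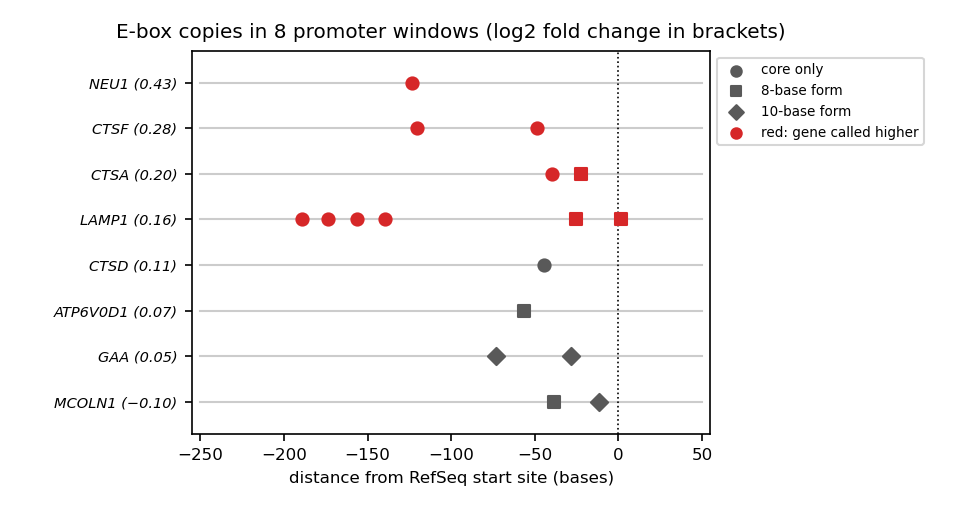
Position of each CACGTG hexamer (x axis, bases from the RefSeq start site, dotted line) in the 8 promoter windows that hold it (y axis, with the log2 fold change), as a circle for the core alone, a square for the 8-base form and a diamond for the 10-base form, in red where the gene was called higher. LAMP1 has 6 copies, the diamonds belong to GAA and MCOLN1, and no other marks reach the 10-base form.

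Other genes of the pathway, 137 in 6 lists written with earlier results of these data known, were called higher in 57 and lower in 9 of 133 tested (42.9% and 6.77%), with a median log2 fold change of 0.11, against the 20.5% and 19.3% of all tested genes and the 30.0% and 21.7% of genes at 10 CPM or more. The offsets gave 72 higher and 10 lower of the 133, against 26.4% and 16.8% of all genes so tested. The list of genes that act on MiT/TFE factors holds parts of mTORC1, the Rag GTPases and folliculin, and also genes that restrain mTORC1 (such as TSC1, DEPTOR and NPRL3) and the calcineurin subunit PPP3CB, which acts to release TFEB. It had 15 rises among 25 and 0 falls (0 falls also in DESeq2 and limma-voom, and 1 gene lower at an unadjusted p under 0.05). TSC1, DEPTOR, NPRL3 and PPP3CB were among the 15. RRAGA rose from 95.4 ± 2.20 to 129 ± 4.96 CPM (log2 fold change 0.43), MLST8, a core subunit of mTORC1, by 0.40, and RRAGD, itself a known MiT/TFE target, by 0.31. The other V-ATPase subunits had 6 rises among 17 and 0 falls (0 falls in DESeq2, limma-voom and edgeR at an unadjusted p under 0.05), with the smallest adjusted p-values in the V1 subunits ATP6V1E1, ATP6V1C2 and ATP6V1B2, whose log2 fold changes were 0.18, 0.38 and 0.15. With TMM scaling the share of rises, 35.3%, was near that of genes at 10 CPM or more. With the offsets 9 of these 17 subunits were called higher, against 26.4% of all genes so tested. With the offsets 1 gene of the MiT/TFE-acting list and 1 other V-ATPase subunit were called lower, AKT1S1 (−0.18; adjusted p = 0.000137) and TCIRG1 (−0.29; adjusted p = 0.000206).

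Other hydrolases and activators had 15 rises and 2 falls among 28 (53.6% and 7.14%). The shares were 20.5% and 19.3% of all tested genes, and 30.0% and 21.7% of those at 10 CPM or more. PPT1, which removes fatty acids from proteins, rose by 0.27 and the nuclease DNASE2 by 0.24. CTSO, a little studied cathepsin, went from 9.34 ± 0.358 to 5.08 ± 0.646 CPM (log2 fold change −0.87), and ASAH1, the acid ceramidase, fell by 0.24, a call that ended with the offsets (log2 fold change −0.04; adjusted p = 0.294). Other membrane and transport genes had 8 rises (36.4%) and 1 fall (4.55%) among 22, against 30.0% and 21.7% of genes at 10 CPM or more. LAPTM4B rose by 0.33, the sterol carrier NPC2 by 0.37 and the tetraspanin CD63 by 0.27. GNPTAB, which makes the mannose 6-phosphate tag of hydrolases, fell by 0.18 (by 0.10 with the offsets).

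The remaining autophagy core genes had 10 rises (32.3%, near the 30.0% above with TMM scaling) and 3 falls among 31. WIPI2 rose by 0.24, the fusion protein SNAP29 by 0.27 and ULK2 by 0.25, and ATG10 and ATG4C fell by 0.28 each. RB1CC1, the scaffold FIP200 of the ULK complex, fell by 0.36, from 68.8 ± 4.64 to 53.7 ± 6.75 CPM. Of 10 cargo receptors 3 rose and 3 fell, shares near those of genes at 10 CPM or more with TMM scaling. NBR1 rose by 0.30, TOLLIP by 0.44 and OPTN by 0.86 from a level of 2.28 CPM. The mitophagy receptors BNIP3 and FUNDC1 fell by 0.26 and 0.31 and the reticulum receptor RETREG1 by 0.39. With the offsets 15 of the 31 core genes were called higher and 3 lower, and 6 of the 10 receptors higher and 2 lower. The shares of all genes so tested were 26.4% higher and 16.8% lower. Of the 9 falls in these lists, 5 were in genes under 40% GC (ASAH1, RB1CC1, ATG4C, FUNDC1 and RETREG1), a range in which 40.1% of all tested genes were called lower. With the offsets 6 of the 9 were still called lower, at log2 fold changes of −0.17 for RB1CC1 and −0.18 for RETREG1, while ATG4C (−0.01; adjusted p = 0.945) and FUNDC1 (−0.02; adjusted p = 0.806) were not.

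**Figure D4:**
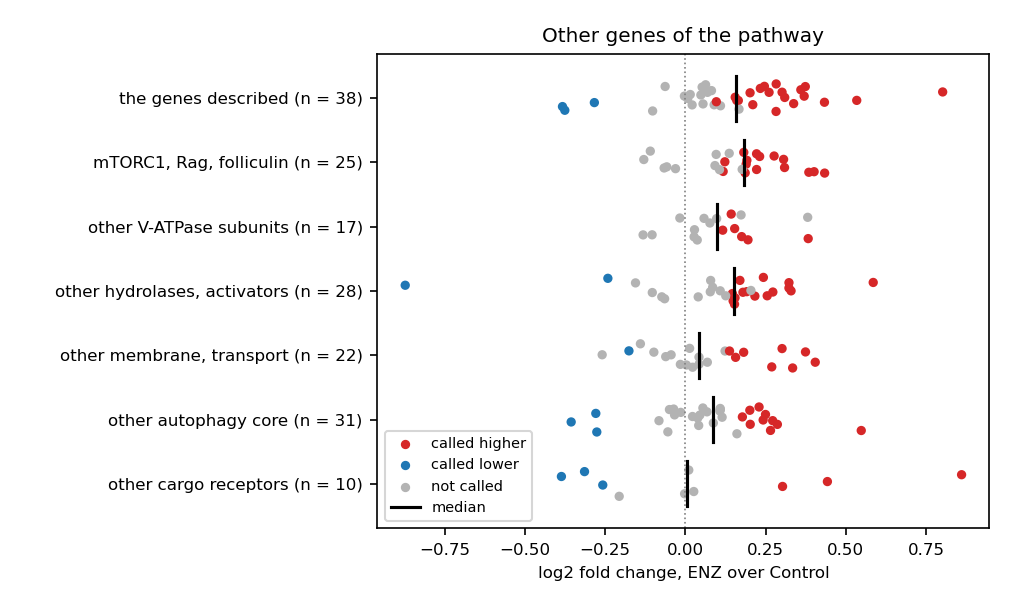
Log2 fold change (x axis) of the 38 tested genes described here and of the tested genes of 6 other lists of the pathway (y axis, with n), 1 point a gene, red for a rise, blue for a fall, grey for no call and a black bar for the median. The bars run from 0.18 for the genes of mTORC1, Rag GTPases and folliculin to 0.004 for the other cargo receptors.

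The scaling bears on changes of this size. Between the log2 fold change and the GC content of a gene's longest transcript, Spearman's rho was 0.34 across all tested genes, which are not independent, and 0.09 across the 38 genes. Their median GC content was 51.3%, against 48.0% for all tested genes. With GC and length offsets 22 of the 38 were called higher and 5 lower, against 26.4% and 16.8% of all genes so tested, and the genes called were partly others, as given above for ULK1, CTSC, MITF, LAMP2, MCOLN1, SGSH, GAA and ATP6V1C1. With library totals alone 18 were higher and 3 lower, against 16.7% and 22.1% of all genes. Of the 23 calls, 16 stood in all 17 alternative settings, 14 of the rises and 2 of the falls. These are TFE3, LAMP1, CTSF, CTSH, CTSZ, NEU1, GLB1, NAGLU, PSAP, MAP1LC3B, GABARAPL1, GABARAPL2, SQSTM1 and ATP6V1H, which rose, and TFEB and GLA, which fell.

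**Figure D5:**
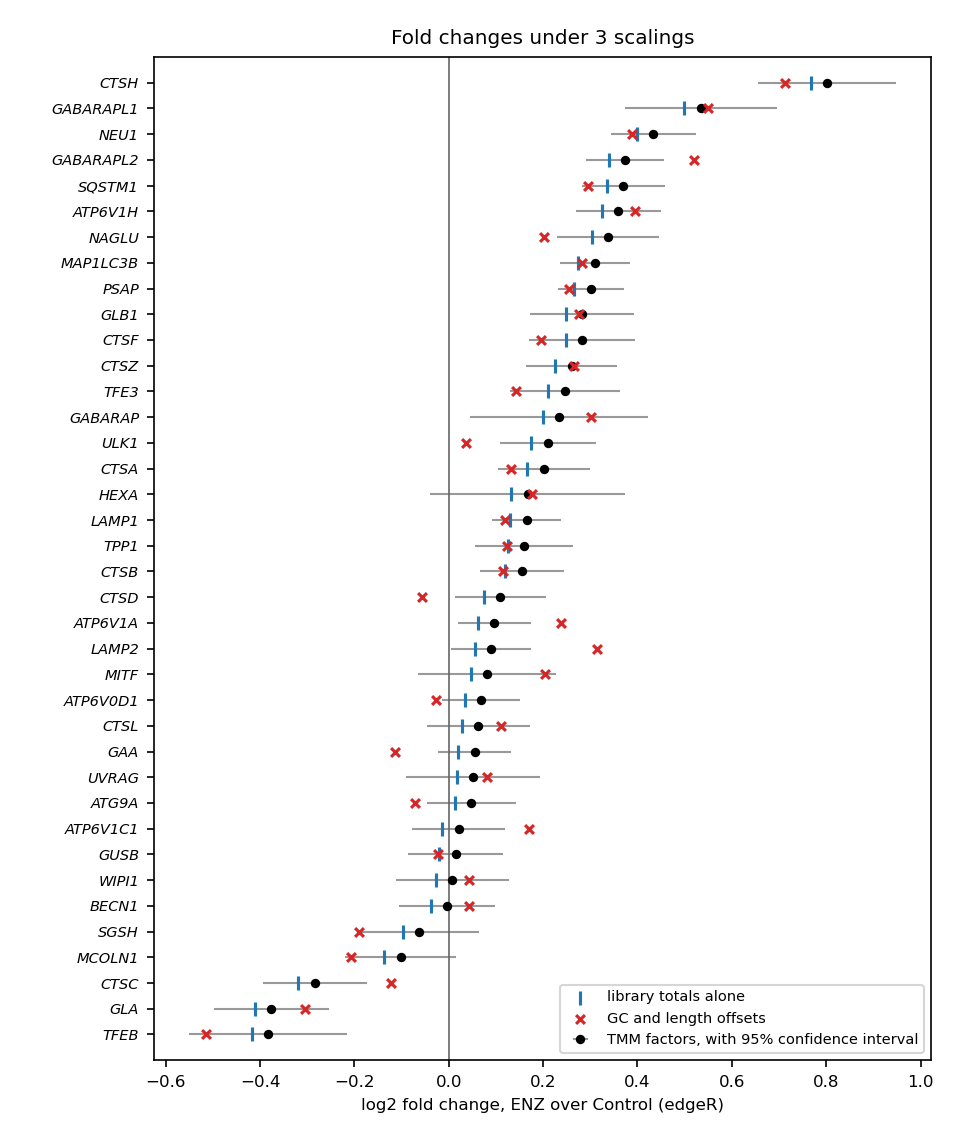
Log2 fold change of ENZ over Control (x axis) for the 38 tested genes (y axis, ordered by value) with TMM factors (black points with 95% confidence intervals), with library totals alone (blue bars) and with GC and length offsets (red crosses). Library totals shift all genes slightly to the left, and the offsets move single genes further, LAMP2 from 0.09 to 0.31 and ULK1 from 0.21 to 0.04.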

How the data were processed

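The authors deposited a table of raw counts and a table of FPKM values. Tools listed in the submitters' processing notes are HISAT2 2.0.5, HTSeq 0.6.1 and DESeq2 1.20.0, with genome build GRCh38 (hg38). Per the labels' protocols, libraries were poly(A)-selected and made with a kit that does not mark strand. Annotation release and counting mode are not given in the sources that were used. The deposited FPKM values equalled the counts divided by 1 length per gene and the library total, within 6.34e-06 percent. Groups and replicate numbers came from the sample titles.

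Counts were tested with edgeR 4.0.16 (R 4.3.3; TMM factors, default filter, robust quasi-likelihood F test, Benjamini-Hochberg adjustment over 18581 genes). SEs were derived from log2 fold changes and their F statistics. Alternatives were DESeq2 1.42.0, limma-voom (limma 3.58.1), median-ratio factors, library totals, other filters, a replicate block, limma on log2(FPKM + 1) or log2(FPKM + 0.1), GC and length offsets (natural splines, 4 degrees of freedom each), and each library left out. The fitting scripts were tested on simulated data with the same dispersion for all genes and no GC trend, a simpler setting than these data. Intervals cover the spread between libraries. A count of 0 allows up to 3 counts, 0.100 to 0.114 CPM.

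The genes and lists were chosen with earlier results of these data known, so no list was tested as a set. Of the 39 genes, those called and the MiT/TFE factors have values per library. From each other list up to 3 called genes per direction with the smallest adjusted p are named. Some genes are not reported here. Positions and exons are from GENCODE 44 and promoters from RefSeq (GRCh38.p14).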

Additional observations from a re-analysis of the deposited data

How the results depend on the processing

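Of the 23 calls, 7 ended in at least 1 of the 17 settings: GABARAP in 11, ATP6V1A in 10, TPP1 in 4, CTSB in 3, ULK1 in 2, and CTSA and CTSC in 1 each; the cause was not tested. Genes called in all were 2526 higher on log2(FPKM + 1) and 2520 on log2(FPKM + 0.1), each 18.8% of 13403 tested. On unfiltered log2(FPKM + 1) 1723 were higher and 2005 lower, 4.71% and 5.48% of 36593 genes. In that setting 24 other pathway genes were higher. With GC and length offsets 5 of the 38 genes were lower, 2 MiT/TFE factors and 2 membrane proteins were higher and 1 membrane protein was lower. V-ATPase rises numbered 1 on library totals, without a filter on low counts and in the 3 FPKM settings, and 1 to 2 with a library left out; membrane protein rises numbered 1 to 2. Signs turned for 8 of the 15 uncalled genes and for no called gene. With GC and length offsets the log2 fold change was −0.057 for CTSD, −0.11 for GAA (then called lower, adjusted p = 0.00499), −0.023 for GUSB, −0.071 for ATG9A, 0.042 for BECN1 and −0.026 for ATP6V0D1. For GUSB, WIPI1 and ATP6V1C1 it was −0.020, −0.028 and −0.014 on library totals, −0.020, −0.024 and −0.015 on log2(FPKM + 1), filtered or not, and −0.021, −0.027 and −0.016 on log2(FPKM + 0.1). BECN1 had 0.0048 in DESeq2. With a library left out GUSB had −0.017 to 0.065, BECN1 −0.043 to 0.027, WIPI1 −0.014 to 0.027 and ATP6V1C1 −0.036 to 0.066. Same-numbered libraries did not deviate together (correlations 0.02, −0.01 and −0.05), and with the replicate block 20 of the 38 genes were higher and 3 lower, as without it, and 7466 genes were called in place of 7393.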

Other observations

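The lengths behind the deposited FPKM of CTSC, CTSZ and HEXA were 24849, 19384 and 15893 bases, where the longest GENCODE 44 transcripts have 7564, 10849 and 6909 bases. It equalled the merged exons of GENCODE 44 within 0.01% for 92.0% of 36490 genes. The place of these 3 genes low in the order by FPKM uses those lengths. In CPM, CTSZ had 76.3 ± 2.57 in Control, close to NEU1 at 78.9 ± 2.09, while in FPKM it had 3.98 ± 0.124 against 16.5 ± 0.417.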
